A study of Homo sapiens with 12 samples.

Results

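SMARCB1 was compared with GFP in G401 cells that were being treated with dBRD9-A, a small molecule that has the BRD9 protein degraded. The 6 libraries of this comparison, 3 with SMARCB1 and 3 with GFP, are 6 of the 12 libraries of the series and were chosen by their labels alone. The authors' deposited tables set other pairs of groups side by side, so the libraries were taken from 2 of those tables and joined by gene identifier. The comparison addresses which expression differences between SMARCB1 and GFP cells stand while BRD9 is degraded.

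The study used RNA sequencing of G401, a human malignant rhabdoid tumour line of genotype SMARCB1(-/-), so that every group shares the loss of the chromosomal SMARCB1 gene product. Doxycycline induced GFP, the control protein, or SMARCB1. Each of these states received the solvent DMSO or dBRD9-A for 24 hours. The groups used here are GFP with dBRD9-A and SMARCB1 with dBRD9-A, with GFP in DMSO and SMARCB1 in DMSO set beside them, 3 replicates each. All libraries come from 1 cell line, and the labels do not give the duration of doxycycline. The GFP and SMARCB1 cells hold different induced constructs. Any other lasting difference between these cells would recur in both conditions and cannot be told apart from an effect of SMARCB1. The term SMARCB1 effect here means the difference between SMARCB1 and GFP cells. Nothing in the labels says whether replicates were separate cultures, so p-values measure the spread between these samples, which may be technical.

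SWI/SNF complexes slide and evict nucleosomes to open promoters and enhancers. They occur as canonical BAF, PBAF and non-canonical BAF. SMARCB1 is a core subunit of the canonical BAF and PBAF complexes and is the gene lost in most rhabdoid tumours, while BRD9 is a subunit of non-canonical BAF, which assembles without SMARCB1. Rhabdoid cells that lack SMARCB1 are known to depend on the non-canonical complex.

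The 6 libraries held 34974295 to 53873422 counts assigned to genes. Values are counts per 1000000 counts (CPM) after TMM scaling of the library sizes. Fold changes are log2, SMARCB1 over GFP, and were tested with edgeR's quasi-likelihood test on 15750 genes, and a gene was called where its adjusted p (Benjamini-Hochberg) was under 0.05. Synthetic ERCC spike-in RNAs made up 0.963% to 1.06% of counts in the GFP libraries with dBRD9-A and 1.18% to 1.3% in the SMARCB1 libraries with dBRD9-A. Scaling to these spike-ins instead moved the median over all tested genes, in log2 units, from 0.01 to -0.32, and how the spike-ins were added is not given in the labels. The rhabdoid line's markers VIM, KRT8 and KRT18 were abundant in all 6 libraries, while MUC1 was at 0.0847 to 0.237 CPM. Of 13 markers of blood, endothelium, liver, red cells, keratinocytes and fibroblasts, all 13 were at or under 3 counts in every GFP library with dBRD9-A, and 9 of 13 were in every SMARCB1 library with dBRD9-A. Their summed level was 0.0935 to 0.158 CPM and 0.738 to 1.02 CPM in these groups. VWF, an endothelial gene, made up most of the latter with 24, 28 and 32 counts, and PTPRC and CD3E were at 0.

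The targeted genes were examined first. SMARCB1 (ENSG00000099956.13) had 2, 1 and 2 counts in the GFP libraries with dBRD9-A and 1318, 1327 and 1277 CPM in the SMARCB1 libraries, at least 16769.8-fold higher (edgeR adjusted p = 1.81e-24). Every library matched its label for this gene. Reads of the doxycycline-induced construct and of the chromosomal gene cannot be told apart in a gene count. The induced level was lower with dBRD9-A than in DMSO, at 1307 ± 27.0 CPM against 1875 ± 59.4 CPM (SD, n = 3), a log2 difference of -0.52 (SE 0.03, edgeR adjusted p = 4.95e-08). Whether this lower level bears on the differences between the 2 SMARCB1 effects was not tested. BRD9 (ENSG00000028310.13), whose protein is the degrader's target, had 41.3, 40.2 and 41.9 CPM in the GFP libraries and 44.9, 47.1 and 50.4 CPM in the SMARCB1 libraries. The BRD9 groups did not overlap, and the log2 fold change was 0.21 (SE 0.04, edgeR adjusted p = 0.000621). With spike-in scaling it was -0.12 and was not called. RNA does not measure the BRD9 protein.

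With BRD9 degraded, SMARCB1 was accompanied by changes in most expressed genes. Of 15750 genes tested, 9975 were called (63.3%), 5191 of them higher (33.0%) and 4784 lower (30.4%). Among the called genes the median size of change was 0.41 log2 units. A fold of at least 2 was reached by 2300 genes, 1365 higher and 935 lower. With spike-in scaling the split of all called genes was 2129 higher and 9046 lower. That of the genes with a fold of at least 2 was then 1046 higher and 1566 lower. By GENCODE gene type, 70.3% of 12510 protein-coding genes and 42.0% of 517 long intergenic RNAs were called, and 15.0% and 17.4% changed at least 2-fold.

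The other 6 libraries, in DMSO, were in the same fit and share 1 estimate of spread with those above. There, 10245 genes were called between SMARCB1 and GFP (65.0%), 5271 higher (33.5%) and 4974 lower (31.6%). With spike-in scaling the split in DMSO was 6831 higher and 2581 lower. Of these 10245 genes, 8685 were also called with dBRD9-A in the same direction (84.8%), which are 87.1% of the genes called with dBRD9-A. With spike-in scaling 4571 genes were called in both conditions in the same direction. Of the 2305 genes with at least a 2-fold change in DMSO, 2167 were called in the same direction with dBRD9-A (94.0%) and 1957 kept at least a 2-fold change. Over the 15750 genes the log2 fold changes had a Pearson correlation of 0.949, given as a description, since genes are not independent replicates. Their standard deviations were both 1.38. Among genes chosen by a DMSO change of 1 to 2 log2 units the median ratio of the change with dBRD9-A to that in DMSO was 0.924, and among genes chosen by such a change with dBRD9-A the median ratio of the DMSO change to the one with dBRD9-A was 0.982. Both ratios are given because each set of genes was selected on 1 of the conditions.

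**Figure D1:**
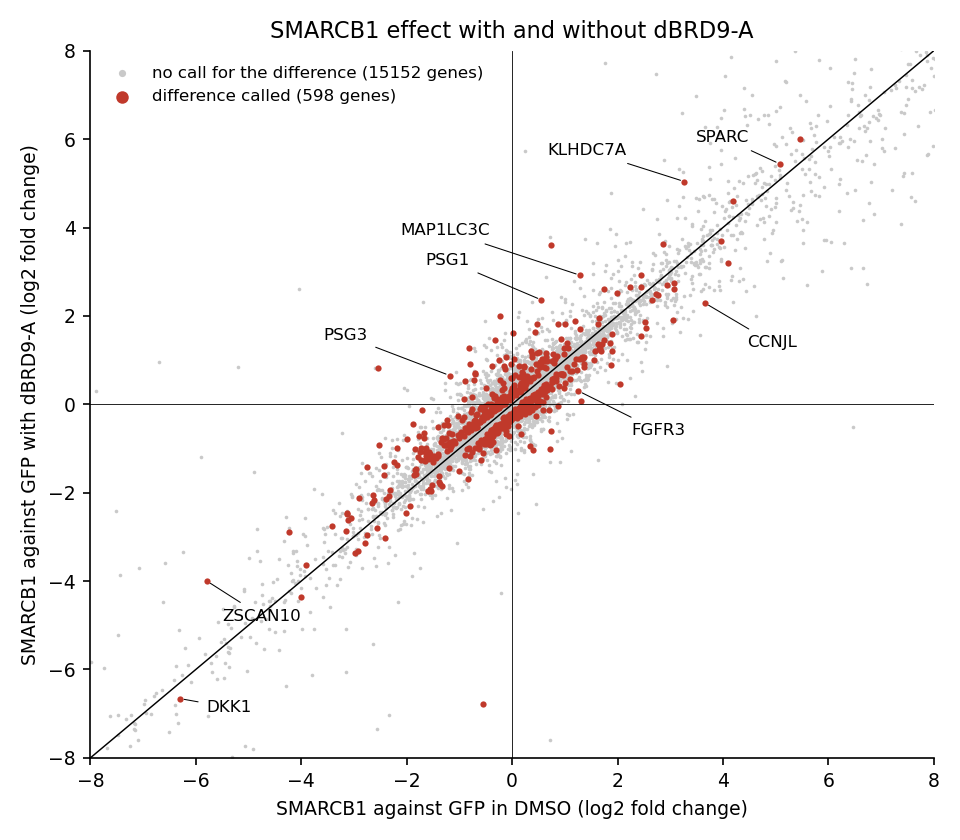
Each point is 1 of 15750 genes, with the log2 fold change of SMARCB1 over GFP in DMSO on the horizontal axis and with dBRD9-A on the vertical axis. The 598 genes in red were called for the difference between both effects, most points lie along the black line of equal effects, and 86 genes lie outside the axes.

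Calls made in 1 condition alone were mostly of small size. There were 1517 genes called in DMSO and not with dBRD9-A, whose DMSO effects had a median size of 0.225 log2 units. Of these, 137 had at least a 2-fold change in DMSO, and the difference itself was called for 71. Conversely, 1247 genes were called with dBRD9-A and not in DMSO, with a median size of 0.245 log2 units with dBRD9-A. Of these, 165 had at least a 2-fold change with dBRD9-A, and the difference was called for 80. A gene called in only 1 of the conditions is therefore not in itself a gene whose SMARCB1 effect differed.

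Genes at or near 0 in one state made up the largest contrasts with BRD9 degraded. DIAPH2, a formin that assembles actin filaments, had 0 counts in all 3 GFP libraries and 845, 1166 and 886 counts in the SMARCB1 libraries, at least 269-fold higher (edgeR adjusted p = 2.04e-16). MYH8, the perinatal myosin heavy chain, likewise had 0 counts in the GFP libraries and 19.8, 21.0 and 21.6 CPM with SMARCB1, at least 267-fold higher. MID1IP1, a regulator of lipid synthesis, went from 0 counts to 13.0, 16.1 and 14.1 CPM, at least 185-fold higher. All 3 genes overlap an annotated antisense transcript, and whether the counting used strand is not given in the sources used here.

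On the falling side, MGST1, a microsomal glutathione transferase, had 43.5, 48.6 and 43.7 CPM in the GFP libraries and 0 counts in every SMARCB1 library, at least 680.5-fold lower (edgeR adjusted p = 1.54e-16). GPM6B, a membrane glycoprotein of neural cells, fell from 26.6, 27.5 and 29 CPM to 0 counts, at least 416-fold lower. ATP10A, a phospholipid flippase, fell from 18.3, 17.6 and 18.5 CPM to 0, 1 and 0 counts, at least 272-fold lower. RFPL4B was the most abundant of these genes. It had 888, 904 and 880.2 CPM in the GFP libraries and 0.0746, 0.203 and 0.163 CPM in the SMARCB1 libraries, a log2 fold change of -12.48 (SE 0.09, edgeR adjusted p = 1.35e-23) against -12.04 in DMSO. In bulk RNA, fewer cells expressing a gene and less RNA per cell cannot be told apart.

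Genes at or under 3 counts in each GFP library and at 1 CPM or more in each SMARCB1 library numbered 74 with dBRD9-A and 73 in DMSO, and 55 were in both sets (74.3% of the first and 75.3% of the second). Genes at 1 CPM or more in each GFP library and at or under 3 counts in each SMARCB1 library numbered 32 with dBRD9-A and 24 in DMSO, with 18 in both (56.2% and 75%). Every one of the 74 and of the 32 genes was called in DMSO in the same direction. These limits were set after the data had been seen.

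Among genes with a mean of at least 5 CPM in both groups, SPARC, a matrix-associated glycoprotein, rose most. It had 29.3, 29.1 and 30.6 CPM in the GFP libraries and 1349.6, 1240.5 and 1281 CPM in the SMARCB1 libraries, a log2 fold change of 5.44 (SE 0.04, edgeR adjusted p = 2.92e-23). TMSB4X, the actin-sequestering thymosin beta 4, rose from 15.6, 14.7 and 14.3 CPM to 396, 368 and 384 CPM, a log2 fold change of 4.68. ETS1, a transcription factor, rose from 5.21, 5.35 and 5.79 CPM to 134, 133 and 139.9 CPM (4.64 on the log2 scale), and CLDN11, a tight junction claudin, from 9.49, 8.16 and 8.47 CPM to 209, 213 and 213 CPM (4.60). No library of one group reached the range of the other for these 4 genes. TMSB4X and ETS1 had nearly the same fold change in DMSO (4.66 and 4.55, adjusted p of the difference 0.902 and 0.608). With spike-in scaling the differences of TMSB4X and ETS1 were -0.47 and -0.40, and both were called.

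The largest falls among genes with at least 5 CPM in both groups began with LZTS1, a leucine zipper protein, at 493, 465 and 486 CPM in the GFP libraries and 22.5, 25.2 and 22.2 CPM in the SMARCB1 libraries (log2 fold change -4.36, SE 0.05, edgeR adjusted p = 9.45e-21). CP, the copper-carrying ferroxidase ceruloplasmin, fell from 116, 120.3 and 119 CPM to 9.92, 9.33 and 9.4 CPM (-3.63 on the log2 scale). HTRA1, a secreted serine protease, fell from 65.3, 64.2 and 61.8 CPM to 5.97, 4.89 and 4.89 CPM (-3.61). ETV5, an ETS factor induced by FGF and ERK signalling, fell from 89.5, 84.2 and 85.8 CPM to 7.26, 8.24 and 8.17 CPM (-3.45). These 4 genes also fell in DMSO, with log2 fold changes of -4.0, -3.91, -3.89 and -3.59.

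By absolute difference in CPM the largest rise in a named gene was ACTB, cytoplasmic beta actin, which had 4786, 4803 and 4703 CPM in the GFP libraries and 6629, 6833 and 6567 CPM with SMARCB1 (log2 fold change 0.49, or 0.16 with spike-in scaling). The abundant identifiers ENSG00000265150.1 and ENSG00000258486.2, which were not matched to a symbol, rose by 0.41 and 0.21 on the log2 scale. With spike-in scaling these changes were 0.08 and -0.12, and neither was called. ZNF106, a zinc finger protein, fell from 1524, 1575 and 1524 CPM to 576, 572 and 594 CPM (-1.41). EMP1, an epithelial membrane protein, fell from 1479, 1502 and 1514 CPM to 605, 561 and 594 CPM (-1.35, against -1.34 in DMSO).

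**Figure D2:**
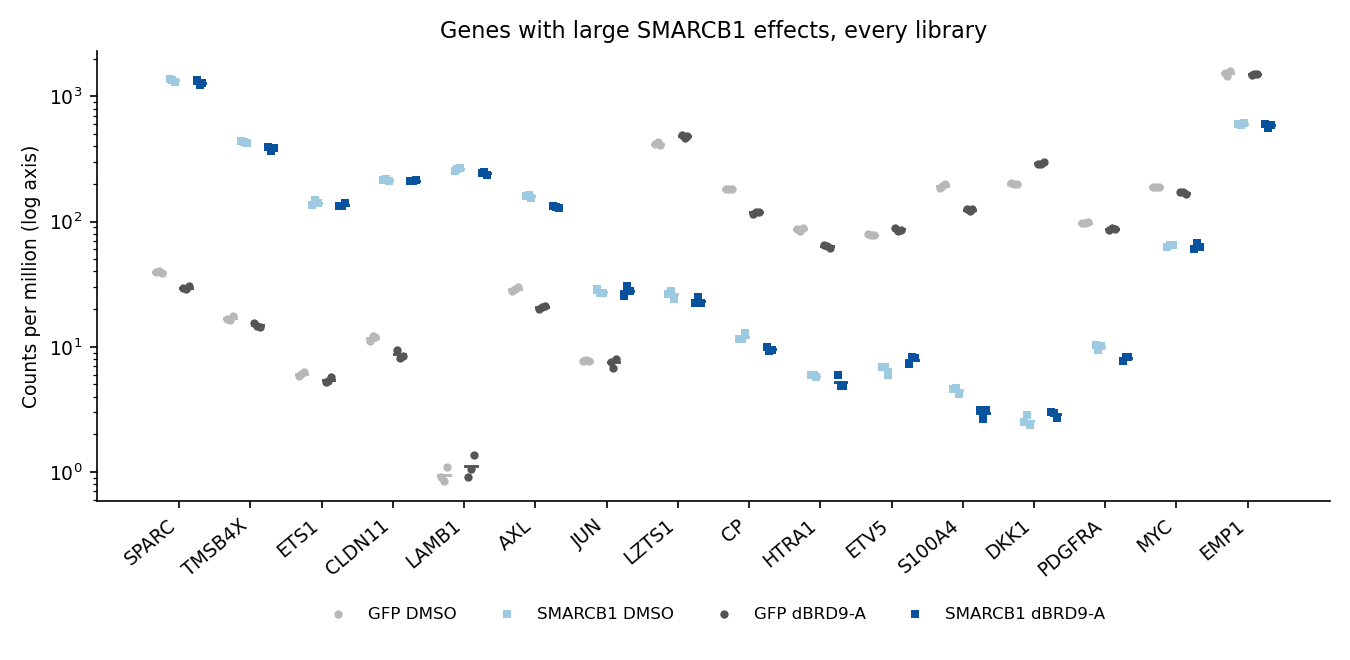
Points are single libraries and short lines group means, in CPM on a log axis, for 16 genes with large SMARCB1 effects. Circles are GFP and squares SMARCB1 libraries, pale in DMSO and dark with dBRD9-A. For each gene the GFP and SMARCB1 libraries lie apart in both conditions. Several of the genes were chosen by a rule that required this with dBRD9-A.

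Gene lists were then read against the shares of all genes called, 33.0% higher and 30.4% lower. Of 27 SWI/SNF subunits tested, a list that holds the induced SMARCB1 itself, 13 were higher and 8 lower with dBRD9-A (3 and 17 with spike-in scaling), with a median log2 fold change of 0.14 beside 0.01 for all genes. With TMM scaling the difference between effects was called for 0 of these subunits. With spike-in scaling, which called it for 11270 of all genes, it was called for SMARCD3 (-0.67), PHF10 (-0.34) and ACTB (-0.41), among others. SMARCD3, a core subunit more abundant in heart and muscle, fell from 37.9, 37.6 and 37.1 CPM to 19.9, 20 and 19.4 CPM (-0.93 on the log2 scale). PHF10, a PBAF subunit, fell from 55.1, 52.9 and 57.6 CPM to 40, 39.7 and 38.7 CPM (-0.48). Non-canonical BAF had 3 genes tested, and 2 were higher and 1 lower, or 0 higher and 1 lower with spike-in scaling. Of 26 Polycomb genes, whose complexes keep developmental genes silent, 11 were higher and 7 lower (3 and 15 with spike-in scaling). PCGF5, a subunit of a variant PRC1 complex, rose from 0.0935, 0.105 and 0.141 CPM to 19.7, 19.2 and 20.8 CPM (7.44 on the log2 scale), and JARID2, a PRC2 cofactor, from 8.75, 9.56 and 8.50 CPM to 20.4, 24.5 and 20.4 CPM (1.29).

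All 7 inhibitors of cyclin-dependent kinases were called with dBRD9-A, 4 higher and 3 lower, and the counts were the same with spike-in scaling. CDKN2A, which encodes p16, had 0.889, 1.13 and 1.27 CPM in the GFP libraries and 2.68, 3.30 and 2.40 CPM with SMARCB1 (1.37 on the log2 scale, edgeR adjusted p = 2.69e-06). CDKN2B, which encodes p15, rose by 2.25 from a mean of 0.436 CPM, and CDKN1C, which encodes p57, by 2.29 from 0.552 CPM. These 3 genes remained at low levels, with means of 2.79, 2.10 and 2.69 CPM in the SMARCB1 libraries. The far more abundant CDKN1A, which encodes p21, fell from 136, 129 and 139 CPM to 90.0, 93.8 and 82.8 CPM (-0.60). CCND2, a G1 cyclin, rose from 0.351, 0.263 and 0.0565 CPM to 23.7, 22.1 and 23.5 CPM (6.62), while CCND1 fell with a log2 fold change of -0.32. MYC, the growth-promoting transcription factor, fell from 172, 173 and 165 CPM to 60.3, 67.5 and 62.4 CPM (-1.42, against -1.56 in DMSO, adjusted p of the difference 0.166). The difference of MYC was -0.36 with spike-in scaling, where it was called.

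Cell cycle genes changed by small amounts. Of 52 G2/M phase genes, 41 were higher and 3 lower, with a median log2 fold change of 0.21, but with spike-in scaling 4 were higher and 22 lower. HMGB2, a chromatin protein of dividing cells, rose from 245, 245 and 250.0 CPM to 450.3, 414 and 423 CPM (0.80), and CKS2, a cyclin-dependent kinase cofactor, fell from 350.3, 354 and 360.0 CPM to 196, 181 and 190.2 CPM (-0.91). Of 41 S phase genes 21 were higher and 6 lower, a direction that also turned with spike-in scaling (2 and 30). Of 23 p53 targets 5 were higher and 15 lower (2 and 20 with spike-in scaling), among them PHLDA3, an inhibitor of AKT, which fell from 198, 202 and 203 CPM to 48.7, 59.4 and 51.3 CPM (-1.92).

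Matrix and adhesion genes included some of the largest changes in both directions. Of 21 integrin and laminin chains tested, 13 were higher and 6 lower with dBRD9-A (11 and 8 with spike-in scaling), and 19 of these were called in the same direction in DMSO. LAMB1, the laminin beta 1 chain, rose from 0.912, 1.05 and 1.36 CPM to 243, 250.2 and 236 CPM (7.79 on the log2 scale, edgeR adjusted p = 1.5e-22). LAMA4, the laminin alpha 4 chain, moved the other way, from 50.3, 54.2 and 52.7 CPM to 0.273, 0.461 and 0.279 CPM (-7.22). The list's median size of change was 2.47, beside 0.275 for all genes tested.

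Of 21 collagen chains 10 were higher and 6 lower (8 and 12 with spike-in scaling). COL4A5, a basement membrane collagen, rose from 0.374, 0.421 and 0.254 CPM to 52.9, 53.9 and 51.7 CPM (7.22), whereas COL16A1 fell from 12.7, 12.9 and 13.0 CPM to 0.124, 0.277 and 0.326 CPM (-5.69). S100A4, a calcium-binding protein used as a mesenchymal marker, fell from 125, 121 and 126 CPM to 3.13, 2.64 and 3.12 CPM (-5.40). The other mesenchymal genes did not move as 1 group, and of 15 genes of the epithelial-mesenchymal lists 8 were higher and 7 lower (7 and 7 with spike-in scaling). VIM, the mesenchymal filament vimentin, rose from 1257, 1256 and 1289.7 CPM to 2151, 2401 and 2160.2 CPM (0.82), and KRT18, an epithelial keratin, fell from 2462, 2455 and 2498 CPM to 1679, 1690.1 and 1667 CPM (-0.56).

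Among 26 muscle contractile genes, 13 were higher and 8 lower (12 and 13 with spike-in scaling). Besides MYH8, MYL7, the atrial myosin light chain, went from 0 counts to 2.54, 2.73 and 2.42 CPM, at least 32.8-fold higher. TNNI1, slow skeletal troponin I, fell from 6.73, 6.08 and 6.21 CPM to 2.51, 2.31 and 2.47 CPM (-1.39). Of the 12 striated muscle genes other than myosin heavy chains, 6 were higher and 6 lower.

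Receptors and their signalling outputs also split by gene. Of 20 receptor tyrosine kinases, 11 were higher and 8 lower (6 and 9 with spike-in scaling). MET, the hepatocyte growth factor receptor, rose from 0.304, 0.421 and 0.339 CPM to 9.77, 12.2 and 12.3 CPM (5.01 on the log2 scale), and AXL from 20, 20.8 and 21.2 CPM to 134, 129.8 and 128 CPM (2.66). PDGFRA, a receptor for platelet-derived growth factor, fell from 86.2, 89.4 and 87.2 CPM to 7.73, 8.28 and 8.28 CPM (-3.43). Among 13 ERK feedback genes, SPRY2, an inhibitor of receptor signalling, rose by 4.59 from a mean of 0.175 CPM, whereas DUSP6, an ERK phosphatase, fell from 220.2, 226 and 225 CPM to 59.8, 66.5 and 60.8 CPM (-1.84).

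The Wnt list had 24 genes tested, of which 15 were higher and 6 lower (10 and 9 with spike-in scaling). FZD7, a Wnt receptor, rose from 8.91, 7.87 and 9.15 CPM to 49.5, 47.5 and 48.2 CPM (2.48), and AXIN2, a Wnt target, from 4.63, 4.13 and 5.25 CPM to 27.0, 25.7 and 25.2 CPM (2.48). DKK1, a secreted Wnt antagonist, fell from 287, 291 and 299 CPM to 3.01, 2.95 and 2.70 CPM (-6.66, edgeR adjusted p = 8.88e-24). GLI1, a Hedgehog target, fell from 11.4, 12.9 and 12 CPM to 1.57, 1.31 and 1.51 CPM (-3.05), while PTCH1, the Hedgehog receptor and also a target, rose by 0.90 on the log2 scale. BMP7, a bone morphogenetic protein, fell from 102, 102 and 99.7 CPM to 3.18, 3.17 and 3.51 CPM (-4.95). SEMA3A, a secreted guidance cue, rose from 11.4, 10.7 and 10.5 CPM to 218, 205 and 223 CPM (4.30), and NRP2, a semaphorin receptor, from 0.351, 0.29 and 0.226 CPM to 43.8, 47.8 and 44.7 CPM (7.27). For GLI1, BMP7, SEMA3A and NRP2 the groups lay far apart. Their fold changes in DMSO were -2.92, -5.08, 4.35 and 6.45, with no call for a difference under TMM scaling. A missing call does not show equal effects. NRP2 had 7.27 with dBRD9-A against 6.45 in DMSO, and its low GFP level, at most 0.351 CPM with dBRD9-A, limits that test.

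ANKRD1, a target of the YAP and TEAD factors, rose from 0.0935, 0.263 and 0.141 CPM to 56.8, 58.0 and 59.6 CPM (8.45 on the log2 scale). Of 11 YAP and TEAD targets tested, 8 were higher and 2 lower (7 and 3 with spike-in scaling), against 33.0% and 30.4% of all genes. All 8 kidney development factors tested were called, 3 higher and 5 lower, and all 8 kept their direction between conditions. CITED1, a gene of nephron progenitors, fell from 3.62, 3.90 and 4.43 CPM to 0.621, 0.996 and 0.745 CPM (-2.30). HOX genes, which set position along the body axis, were near the background, with 8 higher and 9 lower of 31 (3 and 15 with spike-in scaling). HOXB13 had the largest fall among them, from 69.3, 67.1 and 70.2 CPM to 25.5, 24.2 and 24.2 CPM (-1.49).

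Housekeeping and metabolic lists changed mainly by small amounts. Of 77 cytosolic ribosomal protein genes 0 were higher and 57 lower, with a median log2 fold change of -0.12, and with spike-in scaling 0 were higher and 76 lower. Many ribosomal protein genes have pseudogenes that share reads with them. Of 22 cholesterol synthesis genes 4 were higher and 17 lower (0 and 19 with spike-in scaling). ACSL4, which loads membrane lipids with polyunsaturated fatty acids, rose from 0.421, 0.184 and 0.282 CPM to 49.2, 47.3 and 52.1 CPM (7.35), and GSTM2, a glutathione transferase, fell from 31.0, 27.8 and 30.1 CPM to 3.88, 3.41 and 4.07 CPM (-2.98). Of 36 oxidative phosphorylation genes 10 were higher and 10 lower, and with spike-in scaling 0 and 32.

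Immune-related genes also went both ways. Of 17 interferon-stimulated genes 8 were higher and 4 lower (6 and 7 with spike-in scaling). OAS3, which senses double-stranded RNA, rose from 1.66, 2.11 and 2.09 CPM to 8.85, 9.39 and 9.0 CPM (2.23). NLRC5, an activator of MHC class I genes, rose by 3.06 on the log2 scale to a mean of 3.47 CPM, whereas TAP1, the peptide transporter of that pathway, fell from 122, 127 and 125 CPM to 64.4, 65.5 and 66.8 CPM (-0.93).

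**Figure D3:**
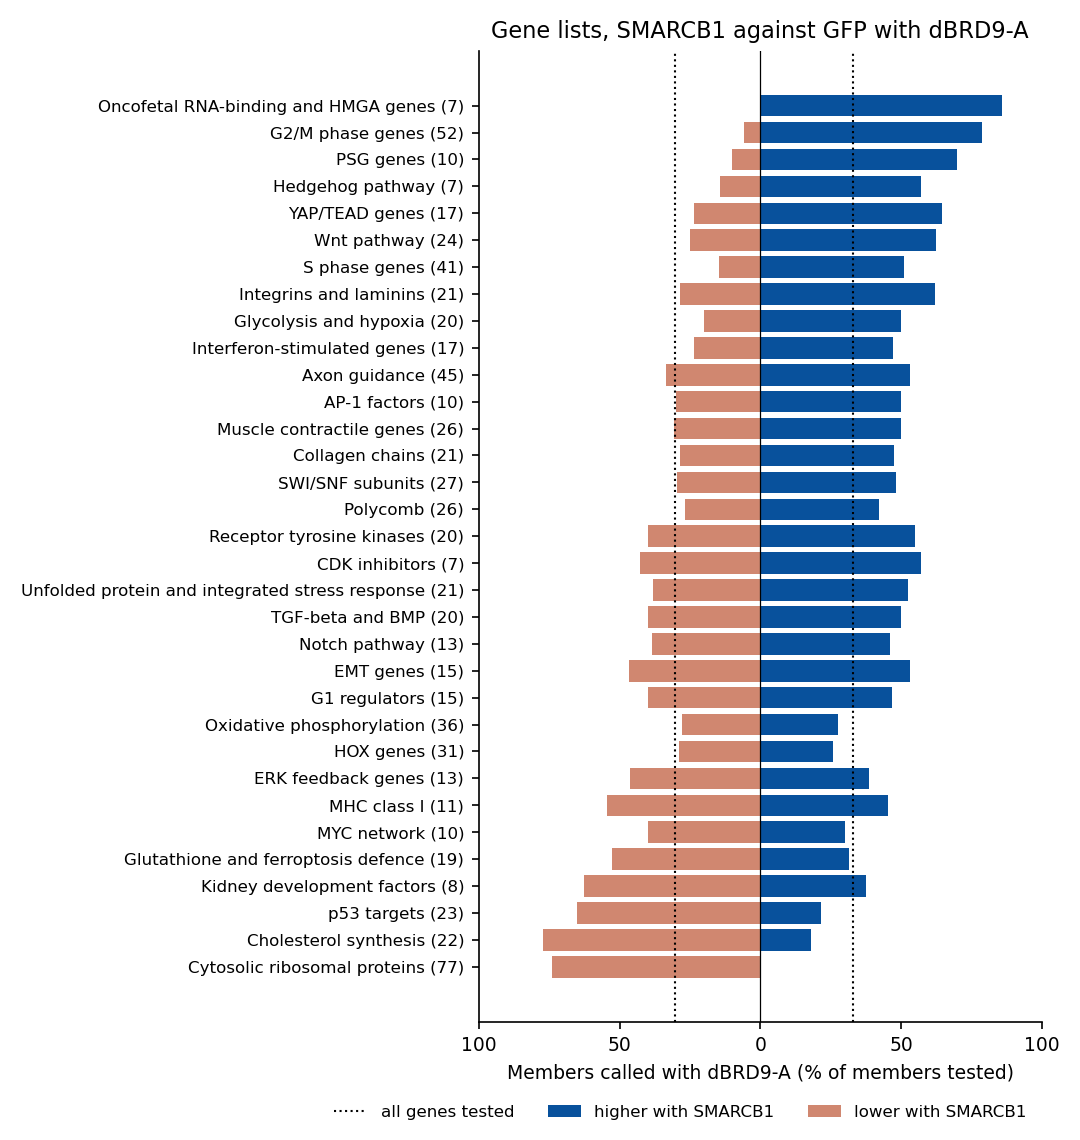
Bars give the percentage of tested members called higher (right) and lower (left) with SMARCB1 in the presence of dBRD9-A, with the number tested in brackets. Dotted lines mark the shares of all genes, 33.0% higher and 30.4% lower, and TMM scaling was used throughout.

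AP-1 transcription factors, dimers of JUN and FOS family proteins, bind the letters TGANTCA. JUN had 7.62, 6.82 and 8.05 CPM in the GFP libraries and 25.4, 30.7 and 27.7 CPM in the SMARCB1 libraries (1.90 on the log2 scale, edgeR adjusted p = 1.89e-13). FOS fell from 13.0, 12.7 and 14.0 CPM to 3.93, 4.44 and 3.51 CPM (-1.73), and 5 of the 10 AP-1 genes were higher and 3 lower (2 and 5 with spike-in scaling). RefSeq gives start sites (GRCh38.p14) for 10743 of the symbols tested, and TGANTCA, which reads the same on both strands, lay in the 250 bases before a start site for 5.8% of them. It was present for 102 of 917 genes that were at least 2-fold higher with SMARCB1 (11.1%) and for 52 of 569 that were at least 2-fold lower (9.14%). It was present for 33 of 458 genes called for the difference (7.21%), and in 6.57% of all 35116 windows of that length. A match is a description of letters and not a binding site, and the motif was chosen after the values had been seen. The window of EMP1, at chr12:13196476-13196725 on the + strand, is shown because EMP1 is an abundant gene named above that holds the motif at 2 places, TGAGTCA from base 175 and TGATTCA from base 48 before the start site, both in capitals:
EMP1: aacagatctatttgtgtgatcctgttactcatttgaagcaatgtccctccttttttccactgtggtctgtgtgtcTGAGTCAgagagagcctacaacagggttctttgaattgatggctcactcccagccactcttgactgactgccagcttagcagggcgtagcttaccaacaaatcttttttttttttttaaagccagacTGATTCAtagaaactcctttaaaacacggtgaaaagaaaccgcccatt

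The SMARCB1 effect itself differed between dBRD9-A and DMSO for 598 genes (3.80%), 338 with a more positive and 260 with a more negative log2 fold change with dBRD9-A. Without SMARCB1 dBRD9-A replicate 2 the count was 862, and without any other single library 422 to 530. That library stood furthest from its replicates: its counts differed from theirs with a chi-square over degrees of freedom of 11.04 and 26.23, against 3.02 to 8.03 for all other pairs within groups, and was the deepest of the 6 with dBRD9-A. The median absolute difference among the 598 was 0.30, and 42 reached 1 log2 unit. For 264 genes the effect had the same sign and was smaller with dBRD9-A, for 211 it had the same sign and was larger, and for 123 the signs were opposite, with calls in both conditions for 41 of these. In 547 of the 598 the level changed more between DMSO and dBRD9-A in the GFP cells than in the SMARCB1 cells, which is given as a description because these changes are parts of the difference. With spike-in scaling the median difference of all genes was -0.49 and 11270 genes were called, 66 positive and 11204 negative, so that small positive differences turned negative.

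Among genes whose SMARCB1 effect shrank most, ZSCAN10, a zinc finger factor of pluripotent cells, had 4.65, 3.87 and 3.81 CPM in GFP and 0.298, 0.258 and 0.209 CPM in SMARCB1 libraries with dBRD9-A. In DMSO it had 4.87, 4.41 and 4.62 CPM with GFP and only 4, 3 and 4 counts with SMARCB1, near the floor of 3 counts. Its log2 fold change was -4.0 with dBRD9-A and -5.79 in DMSO, a difference of 1.79 (SE 0.38, edgeR adjusted p = 0.0101), and leaving out 1 library ended that call in 1 of 12 cases. CCNJL, a cyclin J-like gene, had 0.514, 0.579 and 0.452 and 2.41, 2.45 and 2.72 CPM, and its effect went from 3.66 in DMSO to 2.29 (adjusted p of the difference 0.0145, lost in 2 of 12 cases). The effect grew most in PSG1, described below with its family, KLHDC7A and MAP1LC3C, among genes with a mean of at least 50 counts. KLHDC7A, a kelch domain gene, had 0.281, 0.263 and 0.395 CPM in GFP and 10.7, 10.2 and 9.89 CPM in SMARCB1 libraries with dBRD9-A, against 0.994, 1.07 and 1.14 and 9.97, 11.3 and 9.74 CPM in DMSO. The SMARCB1 libraries of both conditions overlapped, while the GFP libraries with dBRD9-A were below those in DMSO, and the effect grew from 3.27 to 5.04 (edgeR adjusted p of the difference 8.69e-05). MAP1LC3C, an autophagy protein of the LC3 family, had 1.94, 2.08 and 1.64 and 14.7, 14.1 and 14.4 CPM with dBRD9-A against 9.69, 9.36 and 9.08 and 23.2, 22.3 and 23.2 CPM in DMSO, and its effect grew from 1.29 to 2.92 (adjusted p of the difference 3.05e-08).

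The pregnancy-specific glycoprotein (PSG) genes held the 3 largest changes of sign among genes called in both conditions. They form a cluster on chromosome 19 and encode secreted proteins of the immunoglobulin superfamily, made mainly by placental trophoblast. With dBRD9-A, 7 of 10 were higher with SMARCB1 and 1 lower (5 and 1 with spike-in scaling), while in DMSO 1 was higher and 7 lower. The difference was called for 9 of the 10, against 3.80% of all genes tested. The genes are close paralogs, and the division of reads among them is uncertain. Upstream windows of PSG3, at chr19:42740482-42740731, and PSG4, at chr19:43205639-43205888, both on the - strand (RefSeq, GRCh38.p14), show a pair with similar upstream sequence, which does not measure how alike the transcripts that carry the reads are. Capitals in PSG4 mark bases that differ from PSG3 or are absent from it in a global alignment, in which 233 of 255 columns were identical (91.4%). The window of PSG5 was less like that of PSG3, with 206 of 286 columns identical (72.0%).
PSG3: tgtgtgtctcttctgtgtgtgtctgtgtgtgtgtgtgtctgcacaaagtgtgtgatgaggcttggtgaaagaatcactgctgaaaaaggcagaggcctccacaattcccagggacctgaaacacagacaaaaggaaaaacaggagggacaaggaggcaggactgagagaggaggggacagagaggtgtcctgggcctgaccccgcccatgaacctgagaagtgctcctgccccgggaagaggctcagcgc
PSG4: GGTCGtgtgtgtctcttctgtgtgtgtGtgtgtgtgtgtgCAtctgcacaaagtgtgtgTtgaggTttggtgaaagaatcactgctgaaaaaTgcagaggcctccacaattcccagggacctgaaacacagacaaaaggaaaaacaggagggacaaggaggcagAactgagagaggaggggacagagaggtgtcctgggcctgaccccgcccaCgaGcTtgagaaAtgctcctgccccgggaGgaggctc

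Summed over the 10 genes, which does not depend on how reads were divided among these 10, the level was 88.1, 88.8 and 87.3 CPM in the GFP libraries and 113, 107.4 and 102.9 CPM in the SMARCB1 libraries with dBRD9-A. In DMSO it was 289, 287 and 304 CPM with GFP and 183, 172 and 176 CPM with SMARCB1. With TMM scaling the SMARCB1 libraries were above the GFP libraries with dBRD9-A and below them in DMSO. With spike-in scaling, tried on this sum after the data had been seen, the groups with dBRD9-A overlapped, at 101.9, 98.3 and 107.4 CPM with GFP and 110.9, 97.4 and 92.2 CPM with SMARCB1, while in DMSO SMARCB1 remained lower (180.6 ± 13.2 against 266.1 ± 4.25 CPM, SD, n = 3). Under both scalings, both dBRD9-A groups were below both DMSO groups.

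PSG9 was the most abundant member in GFP cells in DMSO. It had 108, 106 and 111 CPM in GFP and 35.4, 33.2 and 31.8 CPM in SMARCB1 libraries in DMSO, and 22.8, 22.4 and 23.5 and 22.2, 21.0 and 19.5 CPM with dBRD9-A. Its SMARCB1 effect went from -1.70 to -0.13, a difference of 1.57 (SE 0.07, edgeR adjusted p = 5.04e-10). The remaining effect with dBRD9-A had an adjusted p of 0.036 and was lost when any of 4 of 12 libraries was left out. PSG1 rose with SMARCB1 in both conditions. It had 1.80, 2.05 and 2.09 and 10, 10.7 and 9.70 CPM with dBRD9-A and 16.9, 17.9 and 20 and 28.2, 25.7 and 26.9 CPM in DMSO, so that the effect grew from 0.56 to 2.36 (adjusted p of the difference 9.88e-08).

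PSG3, PSG7 and PSG8 were called in both conditions with opposite signs. PSG3 had 1.19, 1.4 and 1.33 CPM in GFP and 2.24, 1.70 and 2.26 CPM in SMARCB1 libraries with dBRD9-A, against 7.40, 7.42 and 7.45 and 3.38, 3.02 and 3.37 CPM in DMSO. Its effects were 0.65 and -1.18, a difference of 1.83 (SE 0.17, edgeR adjusted p = 4.56e-06). With spike-in scaling its effect with dBRD9-A was 0.33 and was not called. PSG8 went from -0.80 in DMSO to 0.91 and PSG7 from -0.71 to 0.71. PSG4 had a smaller difference of 0.53, with 46.6, 47.1 and 43.4 and 53.8, 51.7 and 49.4 CPM with dBRD9-A, and its effect there was 0.18, or -0.15 with spike-in scaling. PSG2 and PSG11 were higher with SMARCB1 with dBRD9-A (1.61 and 0.87) and not called in DMSO (0.02 and -0.16), and the difference was called for both (1.59 and 1.03). PSG5 had an effect of 0.16 with dBRD9-A, which missed the threshold (adjusted p = 0.0823), against -0.76 in DMSO. PSG6, the least abundant, had 0.257, 0.132 and 0.226 CPM in GFP and 0.373, 0.314 and 0.186 CPM in SMARCB1 libraries with dBRD9-A, groups that overlapped. In DMSO PSG6 had 1.03, 1.24 and 0.812 CPM in GFP and 0.838, 0.353 and 0.31 CPM in SMARCB1 libraries, which overlapped too, and was called lower (-1.07, edgeR adjusted p = 0.0079).

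**Figure D4:**
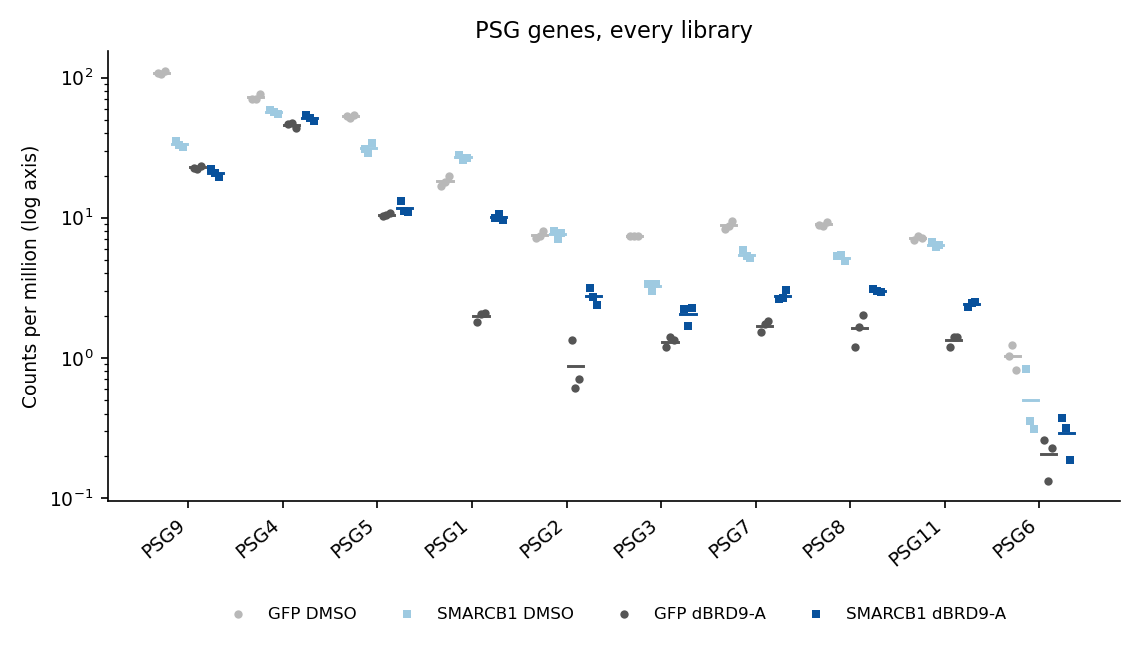
CPM of the 10 PSG genes in each library, on a log axis, with lines at group means. With dBRD9-A (dark symbols) the SMARCB1 squares lie at or above the GFP circles for most members, while in DMSO (pale symbols) they lie below them for PSG9, PSG4, PSG5, PSG3, PSG7, PSG8 and PSG11.

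TGF-beta and BMP genes had 9 of 20 members called for the difference, against 3.80% of all genes. The ID genes, BMP targets that block basic helix-loop-helix factors, were all 4 among them, each with a more negative SMARCB1 effect with dBRD9-A. ID2 had 101, 104 and 102 CPM in GFP and 48.4, 46.4 and 48.5 CPM in SMARCB1 libraries with dBRD9-A, against 65.2, 61.8 and 64.2 and 45.3, 42.0 and 42.8 CPM in DMSO, and its effect went from -0.56 to -1.10 (difference -0.54, SE 0.05, edgeR adjusted p = 3.08e-06). The GFP libraries with dBRD9-A were the highest of the 4 groups for ID2, ID3 and ID4. ID3 went from -0.42 to -0.81 and ID4 from -2.0 to -2.46, with differences of -0.40 and -0.45. ID1 had the weakest of these differences. Its libraries overlapped with dBRD9-A, at 185, 177 and 189.9 CPM with GFP and 186, 222 and 188 CPM with SMARCB1, and its difference was -0.32 (adjusted p = 0.0378), which was lost when any of 9 of 12 libraries was left out.

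The differences of GDF5 and BMP6 were positive. GDF5, a BMP family ligand, had 1.80, 1.37 and 2.49 and 6.24, 5.99 and 5.35 CPM with dBRD9-A and an effect of 1.65 against 0.44 in DMSO (adjusted p of the difference 0.000636). BMP6 was lower with SMARCB1 in both conditions, with effects of -1.01 with dBRD9-A and -1.83 in DMSO. SKIL, a feedback inhibitor of SMAD proteins, and BMP4 had smaller effects with dBRD9-A (0.53 and 0.28) than in DMSO (0.84 and 0.49).

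Further genes with a changed SMARCB1 effect came from the growth control lists. FGFR3, a fibroblast growth factor receptor, had 18.9, 17.6 and 20.5 CPM in GFP and 24.0, 23.5 and 22.7 CPM in SMARCB1 libraries with dBRD9-A, against 9.07, 8.68 and 9.20 and 23.7, 20 and 21.1 CPM in DMSO. Its effect fell from 1.26 to 0.30 (difference -0.96, edgeR adjusted p = 7.04e-06), and with spike-in scaling the latter was -0.03. CDKN2C, which encodes the p18 kinase inhibitor, changed sign, with 59.1, 59.2 and 65.0 CPM in GFP and 53.9, 48.4 and 49.1 CPM in SMARCB1 libraries with dBRD9-A and effects of 0.46 in DMSO and -0.28 with dBRD9-A (difference -0.73, adjusted p = 8e-06). DUSP6 fell further with SMARCB1 when BRD9 was degraded (-1.84 against -1.33, adjusted p of the difference 1.23e-05), and its GFP libraries were at 224 ± 3.03 CPM with dBRD9-A and 131 ± 3.98 CPM in DMSO (SD, n = 3).

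SLC2A1, the glucose transporter GLUT1, kept less of its fall. It had 133, 128 and 131 CPM in GFP and 76.1, 77.3 and 76.2 CPM in SMARCB1 libraries with dBRD9-A against 278, 275 and 289.8 and 88.2, 90.3 and 87.3 CPM in DMSO, and the effect was -0.77 against -1.67 (difference 0.89, SE 0.04, edgeR adjusted p = 5.04e-10). TAGLN, a smooth muscle actin-binding protein, had 63.7, 66.7 and 69.2 and 247, 248 and 247 CPM with dBRD9-A against 105, 107 and 117 and 251, 256 and 248 CPM in DMSO, and its effect grew from 1.2 to 1.89 (adjusted p of the difference 5.16e-07). TNNT2, cardiac troponin T, turned from -0.24 in DMSO to 1.0, with 6.57, 6.53 and 5.31 CPM in GFP and 12.9, 12.9 and 11 CPM in SMARCB1 libraries with dBRD9-A (adjusted p of the difference 4e-06). GADD45A, a stress-response gene, gained 0.55 log2 units on an effect of 0.92. For these genes the SMARCB1 group means in the 2 conditions were closer together than the GFP means, with 247 and 252 CPM for TAGLN and 33.5 and 35.3 CPM for GADD45A.

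**Figure D5:**
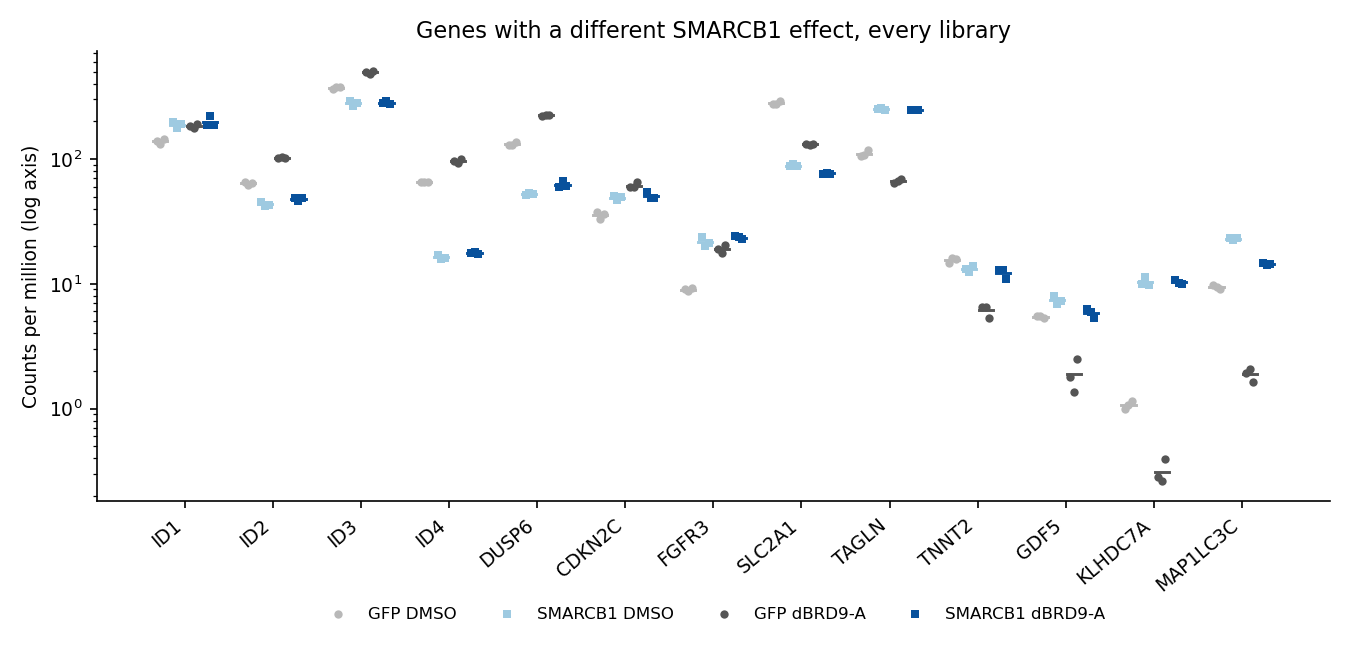
CPM in each library, on a log axis, for 13 genes whose SMARCB1 effect differed between conditions, with lines at group means. The GFP circles of dBRD9-A (dark) and DMSO (pale) lie further apart than the SMARCB1 squares for the genes shown, for example TAGLN at means of 66.6 and 109.8 CPM with GFP.

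Small differences were called for some of the genes with the largest SMARCB1 effects. SPARC rose slightly more with dBRD9-A than in DMSO (5.44 against 5.08, edgeR adjusted p of the difference 0.000241), as did CLDN11 (4.60 against 4.19), but with spike-in scaling these differences were -0.13 and -0.08. LZTS1 fell slightly more (-4.36 against -4.0) and CP slightly less (-3.63 against -3.91, a difference of -0.22 with spike-in scaling). DKK1 had an effect of -6.66 against -6.30, a difference lost when any of 4 of 12 libraries was left out. AXL and FZD7 had differences of 0.21 and -0.29, which leaving out 1 library ended for 7 and 8 of the 12 libraries, and that of AXL was -0.29 with spike-in scaling. With spike-in scaling the differences of GADD45A, PSG4, TAGLN and BMP6 were 0.05, 0.03, 0.20 and 0.32, and none of these 4 was called. A further 28 list members called for the difference and not named here had absolute differences of 0.15 to 0.52 log2 units.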

How the data were processed

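RNA was sequenced from 12 libraries of G401 cells, and the 6 with dBRD9-A give the main comparison. Per the labels' protocols, RNA came from a Qiagen RNeasy kit and libraries from a TruSeq Stranded mRNA kit. The authors deposited 3 tables of expected counts per gene. The submitters' processing notes name STAR, RSEM 1.3.1, DESeq2, GRCh37 and hg19 without a role or order, and use of strand is not given in the sources used here. RSEM divides reads among genes by likelihood, so PSG copies, pseudogenes and overlapping genes can share reads. The 6 libraries found in 2 tables had identical values.

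Expected counts were rounded to whole numbers, and 40 spike-in rows entered neither library sizes nor tests. Symbols were matched for 51996 of 57820 identifiers, and gene types and overlaps came from GENCODE release 29. No coordinates were joined to the counts. Genes passing filterByExpr (minimum count 10) were fitted in R 4.3.3 with edgeR 4.0.16, TMM scaling and 1 coefficient per group over all 12 libraries, after a test of the code on simulated data. Contrasts were SMARCB1 over GFP with dBRD9-A, the same in DMSO, and their difference. A gene was called at a Benjamini-Hochberg adjusted p under 0.05. SEs come from the quasi-F statistic. Where every library of a group had at most 3 counts, a fold was computed against 3 counts per library and is a lower bound, and this floor covers counting error only. Alternatives were RLE size factors, DESeq2 1.42.0, spike-in scaling, no filter, a fold limit, a replicate block, fits of 6 libraries and leaving out each library.

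Named genes are the 4 largest rises and falls by fold change, the same among genes of at least 5 CPM in both groups, the 3 largest each way by CPM difference, the 3 that shrank, grew or changed sign most, and extreme or differing list members. The first 3 sets needed groups that did not overlap and a mean of 50 counts. Genes that shrank, grew or changed sign most needed a called difference and a mean of 50 counts over the 12 libraries. Not every list member the rule gives is named, and some are not reported here. The comparison, lists and rule were chosen with earlier results of these data known. Cell type markers come from a separate list. Every pair of replicates differed beyond counting noise. List symbols that matched no identifier were not analysed here.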

Additional observations from a re-analysis of the deposited data

Results flagged for a closer look

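The SMARCB1 effect differed between dBRD9-A and DMSO for 598 of 15750 genes by the test of the difference itself (edgeR, adjusted p under 0.05, dBRD9-A minus DMSO on the log2 scale throughout). With 3 libraries a group, single values were not tested for standing apart within their group.

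Among the PSG genes the differences were 1.80 for PSG1, 1.59 for PSG2, 1.83 for PSG3, 0.53 for PSG4, 0.92 for PSG5, 1.42 for PSG7, 1.71 for PSG8, 1.57 for PSG9 and 1.03 for PSG11. RSEM can move reads between these close paralogs.

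In the BMP and TGF-beta pathway they were -0.32 for ID1, -0.54 for ID2, -0.40 for ID3, -0.45 for ID4, -0.21 for BMP4, 0.82 for BMP6, 1.2 for GDF5 and -0.31 for SKIL. Among receptors and other signalling genes they were -0.96 for FGFR3, -0.51 for DUSP6, 0.21 for AXL, -0.29 for FZD7 and -0.36 for DKK1.

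Among cell cycle and p53-linked genes they were -0.73 for CDKN2C, 0.55 for GADD45A and -0.36 for PHLDA3. Among matrix and contractile genes they were 0.20 for COL1A2, -0.30 for COL3A1, -0.39 for COL5A2, -0.26 for COL11A1, 0.37 for SPARC, 1.24 for TNNT2 and 0.70 for TAGLN. The remaining genes had 1.79 for ZSCAN10, 1.77 for KLHDC7A, 1.63 for MAP1LC3C, 0.89 for SLC2A1, 0.41 for CLDN11, 0.37 for LIN28A, 0.28 for CP, -0.36 for LZTS1 and -1.38 for CCNJL.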

How the results depend on the processing

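The gene counts called for the SMARCB1 effect with dBRD9-A, for that in DMSO and for their difference stayed within 1.5 times of those reported under RLE size factors, DESeq2 and no filter on low counts. A limit of at least 1 on the absolute log2 fold change left 2300 genes with dBRD9-A, 2305 in DMSO, 42 for the difference and 1957 called in both with the same sign. Leaving out each library in turn gave 9352 to 10072 genes with dBRD9-A, 9648 to 10491 in DMSO, 422 to 862 for the difference (862 without SMARCB1 dBRD9-A replicate 2) and 8309 to 8535 called in both. Spike-in scaling gave 11270 genes for the difference and 4571 called in both with the same sign, and the cause was not tested. It shifted the median of all genes to -0.32 with dBRD9-A and -0.49 for the difference. Under it the effect with dBRD9-A turned to -0.05 for BMP4, -0.12 for BRD9, -0.12 for ENSG00000258486.2, -0.03 for FGFR3, -0.22 for ID1, -0.15 for PSG4, -0.16 for PSG5, -0.18 for COL1A2 and -0.19 for COL3A1. Among these, the turned values of BRD9, ENSG00000258486.2 and FGFR3 were not called, and those of COL1A2 and COL3A1 were. The difference turned to -0.29 for AXL, -0.08 for CLDN11, -0.22 for CP, -0.13 for SPARC, -0.29 for COL1A2 and -0.13 for LIN28A. The summed PSG level with SMARCB1 minus that with GFP turned from 19.7 to -2.3 CPM with dBRD9-A. Whether replicate numbers pair the libraries is not given in the labels and cannot be decided from 3 libraries a group. Deviations of same-numbered libraries correlated at -0.226 to 0.202, and those of differently numbered libraries at -0.227 to 0.235. With a replicate block, 9812 genes were called with dBRD9-A, 10113 in DMSO, 529 for the difference and 8561 in both, and 3 named differences (AXL, COL11A1 and ID1) were no longer called. The 6 dBRD9-A libraries alone gave 9554 genes, and 9215 with a replicate block. Leaving out single libraries ended the call of the effect with dBRD9-A for PSG9 and of the difference for AXL, CCNJL, COL11A1, DKK1, FZD7, ID1 and ZSCAN10. Depth limits what can be said of genes near 3 counts per library.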

Other observations

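Fibrillar collagen genes, which build connective tissue matrix, held 4 of 8 tested members with a called difference between the SMARCB1 effects, against 3.80% of all genes. The whole collagen list held 4 of 21, with 0 of 3 basement membrane and network chains and 0 of 10 other chains. COL5A2 had 328, 317 and 312 CPM in GFP and 763, 775 and 750.4 CPM in SMARCB1 libraries with dBRD9-A, groups that did not overlap, and its effect was 1.26 with dBRD9-A and 1.64 in DMSO (edgeR adjusted p of the difference 4.86e-06). COL3A1 had an effect of 0.14 with dBRD9-A against 0.44 in DMSO, and -0.19 with dBRD9-A under spike-in scaling. COL1A2 had 0.15 against -0.06, of which the DMSO value was not called, and its effect with dBRD9-A was -0.18 and its difference -0.29 under spike-in scaling. COL11A1 had -0.48 against -0.21. The COL11A1 difference had an adjusted p of 0.0328 and was no longer called under the replicate block or when any 1 of 7 of the 12 libraries was left out.

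Of 7 oncofetal RNA-binding and HMGA genes, 6 were called higher with SMARCB1 and none lower with dBRD9-A (4 higher and 2 lower with spike-in scaling), against 33.0% of all genes called higher. LIN28A, which blocks maturation of let-7 microRNAs, had 244, 240.1 and 235 CPM in GFP and 433, 458 and 438 CPM in SMARCB1 libraries with dBRD9-A, and its effect was 0.88 against 0.52 in DMSO (edgeR adjusted p of the difference 5.54e-05), a difference of 0.37 that was -0.13 with spike-in scaling. IGF2BP3, an RNA-binding protein of embryonic tissues, rose from 190.5, 192 and 193 CPM to 297, 290.3 and 298 CPM (0.62 on the log2 scale). Of 11 genes of the ATF4 branch of the stress response, 3 were called higher and 7 lower (2 and 8 with spike-in scaling). ATF4 itself fell from 345, 364 and 352 CPM to 218, 230.4 and 219.6 CPM (-0.67), as did ASNS, the asparagine synthetase, from 101, 108 and 95.5 CPM to 54.8, 56.8 and 58.4 CPM (-0.84), whereas TRIB3, another ATF4 target, rose from 14.1, 15.1 and 14.3 CPM to 30.1, 30.7 and 30.9 CPM (1.07).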
